A study of Mus musculus with 39 samples.

Results

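The genes described here are 35 genes of the interferon response and of antigen presentation, taken by name from the count table of 29980 genes, of which 33 had enough counts to be tested. They were followed in C2C12 cells, a mouse myoblast line that stops dividing and fuses into myotubes when serum is lowered. FlncKO cells, in which a CRISPR guide to the first exon of Flnc was used, were set against wild-type (WT) cells. Flnc encodes filamin C, the actin-crosslinking filamin of muscle. Both lines were collected in growth medium with 10% fetal bovine serum (day 0) and after 1, 2, 4 and 6 days in 2% horse serum. RNA was sequenced in 39 libraries, 4 for each line and day except 3 for FlncKO at day 2. The labels name the FlncKO cells by 1 name and do not say how many clones they hold, nor whether numbered replicates are separate cultures, so p-values measure the spread between these libraries, which may be technical. A difference between the lines that arose outside Flnc cannot be told apart from the knockout.

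Interferons are secreted proteins that bind receptors coupled to the kinases Jak1, Jak2 and Tyk2. The kinases activate transcription factors such as Stat2, which with Irf9 binds interferon-stimulated response elements (ISRE). Interferon gamma acts mainly through gamma-activated sites (GAS). The genes switched on include sensors of viral RNA, proteins that block viral RNA and protein synthesis, GTPases that attack intracellular parasites, and the machinery that cuts proteins into peptides and shows them on MHC class I at the cell surface. Muscle cells carry little of this machinery at rest and raise it in inflamed muscle.

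Promoters are shown for the members chosen by p-value or level for values in every library, where the upstream bases hold either element. The pathway is known to read elements of these kinds, but whether it reads these stretches was not tested. Capitals mark the matched letters: the ISRE-like pattern GAAANNGAAA (TTTCNNTTTC on the other strand) or the GAS-like pattern TTCNNNGAA, which reads as the same pattern on both strands. Each is written 5′ to 3′ along the gene's strand, from the RefSeq promoter windows of GRCm38.p6.
Psmb8: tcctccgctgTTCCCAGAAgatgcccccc
Irgm1: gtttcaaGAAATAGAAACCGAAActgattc
Irf1: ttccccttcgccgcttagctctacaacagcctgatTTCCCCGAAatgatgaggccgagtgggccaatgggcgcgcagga
B2m: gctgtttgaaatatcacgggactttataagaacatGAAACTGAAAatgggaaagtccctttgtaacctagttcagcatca
Ifit2: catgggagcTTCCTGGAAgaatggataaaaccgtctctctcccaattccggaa
The Psmb8 stretch lies at chr17:34198088-34198116, plus strand, and its GAS-like pattern begins 97 bases before the RefSeq start. The Irgm1 stretch lies at chr11:48871428-48871457, minus strand, and holds 2 overlapping ISRE-like patterns that begin 30 bases before the start. Both of these stretches overlap annotated exons. The Irf1 stretch is at chr11:53769889-53769967, plus strand, with a GAS-like pattern that begins 90 bases before the start. The B2m stretch is at chr2:122147513-122147592, plus strand, with an ISRE-like pattern that begins 139 bases before the start. The Ifit2 stretch is at chr19:34550444-34550496, plus strand, with a GAS-like pattern that begins 241 bases before the start. Ifit1, whose values in every library were added later, held 2 ISRE-like patterns that begin 104 bases before the start and is not shown. Over the 250 upstream bases, an ISRE-like pattern stood in 12 of the 28 members with a promoter window (42.9%) and in 2.98% of all 32851 windows. A GAS-like pattern stood in 6 of the 28 (21.4%) and in 7.02% of all windows. A member was counted if any of its windows held the pattern, while the share of all is per single window, so the units differ. The members were also chosen as genes of the interferon response and antigen presentation, so their share gives no independent support. Xaf1, Irf5, Tap1, Psmb9, Ddx58 and Trim25 held neither pattern in their windows. A match or its absence in this window is a description of the letters only.

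Levels are CPM, counts scaled to the library total and by TMM factors. Library totals ran from 6838281 to 28902526 counts and averaged lowest at day 6 in both lines. Values per library are given in the order of replicates 1, 3, 4 and 5, or 1, 3 and 5 for FlncKO at day 2. Flnc ranged from 16.5 to 158 CPM over the FlncKO libraries and from 400.4 to 2266 CPM over the WT libraries. Myod1, Des and the other 7 muscle markers had counts in all 39 libraries. Their summed level at day 2 ran from 3317 to 5119 CPM in FlncKO libraries and from 5210 to 9695 CPM in WT libraries. It ran from 4486 to 9868 and from 14720 to 19231 CPM at day 4, and from 5602 to 8725 and from 14791 to 20226 CPM at day 6. The sums of the lines overlapped at days 0 and 1 and not on these later days. Of 10 immune cell markers 3 could be tested, and the macrophage marker Adgre1, the MHC class II genes H2-Aa and H2-Ab1 and the T-cell marker Cd3e had 0 counts in every library. The summed immune markers ran from 1.63 to 7.02 CPM in FlncKO libraries and from 0.503 to 9.22 CPM in WT libraries. Lyz2, a lysozyme gene of myeloid cells in that list, averaged 1.07 ± 0.425 CPM in FlncKO cells and 0.0634 ± 0.127 CPM in WT cells at day 6, with no overlap on any day. Cd68, a macrophage marker of the same list, averaged 1.36 ± 0.576 CPM in FlncKO cells and 6.30 ± 0.833 CPM in WT cells at day 0 (log2 difference -2.21 ± 0.37, adjusted p = 0.00222), and was also lower at day 1 (adjusted p = 0.0273). The summed immune markers at day 0 ran from 2.64 to 4.23 CPM in FlncKO libraries and from 5.67 to 9.22 CPM in WT libraries, without overlap. Muscle markers were called both ways: of the 9, FlncKO cells had 0 higher and 4 lower at day 0, 1 and 5 at day 1, 2 and 5 at day 2, 2 and 4 at day 4, and 2 and 2 at day 6. Of all genes, 6.46% were called higher and 9.09% lower at day 0, and 14.5% and 14.4% at day 6. The shares for the other days are given below with the members. At day 6 those higher were Myod1 (log2 difference 0.98 ± 0.13, adjusted p = 0.000785) and Vcam1 (log2 difference 3.31 ± 0.15, adjusted p = 6.50e-09), and those lower were Myh3 and Cdh15 (log2 difference -0.79 ± 0.11, adjusted p = 0.0114). Myog, a transcription factor of myoblast differentiation, averaged 459.6 ± 193 CPM in FlncKO cells and 1196 ± 328 CPM in WT cells at day 6 (adjusted p = 0.0588). Myh3, embryonic myosin, averaged 638 ± 236 CPM in FlncKO cells and 5419.8 ± 996 CPM in WT cells at day 6 (log2 difference -3.09 ± 0.29, adjusted p = 0.00627). Of 6 endothelial and fibro-adipogenic markers 4 could be tested, and all 4 differed between the lines over the days together, as did 44.7% of all genes. Their summed level ran from 242 to 476 CPM in FlncKO libraries and from 145 to 354 CPM in WT libraries at day 0, and from 100.0 to 209 CPM in FlncKO libraries and from 141 to 833 CPM in WT libraries at day 6. At day 6, Pdgfra was higher and Ly6a and Cd34 were lower, while the endothelial Cdh5 had 4 counts in all 39 libraries. The part of any of the 3 marker lists in the results below was not tested. FlncKO day 1 replicate 3, WT day 0 replicate 4 and WT day 2 replicate 4 each had the lowest mean correlation within its own group (0.929, 0.955 and 0.957), though FlncKO day 4 replicate 3 and FlncKO day 1 replicate 1 were as low (0.954 for each). The first 3 named are called the 3 libraries low in correlation below. WT day 2 replicate 4 also stood apart in Hspa5, a chaperone of the endoplasmic reticulum, with 11863 CPM where the other WT libraries of that day reached at most 1009. In bulk RNA, fewer cells expressing a gene and less RNA per cell cannot be told apart.

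Both directions occurred among the members on every day. At day 0, 6 of the 33 tested members were higher in FlncKO cells than in WT cells and 2 were lower, by edgeR's quasi-likelihood test at an adjusted p under 0.05. Of all tested genes, 6.46% were called higher and 9.09% lower at that day. At day 1, 5 members were higher (8.1% of all genes) and 4 lower (9.93%). At day 2, 4 were higher (7.64%) and 7 lower (10.3%). At day 4, 9 were higher (13.3%) and 5 lower (14.2%), and at day 6, 11 were higher (14.5%) and 4 lower (14.4%). With replicate number as a block within each day, the members lower at day 0 were 4 (15.8% of all genes), with B2m and Gbp2 added. Over all days together 26 members differed between the lines, against 44.7% of all genes. The median log2 difference of the tested members was 0.29, -0.063, -0.24, 0.35 and 0.62 at days 0, 1, 2, 4 and 6, and that of all genes lay between -0.036 and 0.017. Without FlncKO day 1 replicate 3, WT day 0 replicate 4 and WT day 2 replicate 4, the counts were 7 higher (12.8% of all genes) and 2 lower (15.1% of all genes) at day 0, 6 higher (8.24% of all genes) and 3 lower (9.93% of all genes) at day 1, and 3 higher (8.48% of all genes) and 6 lower (12.1% of all genes) at day 2. Leaving out 1 library moved the members lower at day 2 to as few as 2 (without FlncKO replicate 5) and those lower at day 0 to 1 (without WT replicate 1) or 4 (without FlncKO replicate 1). The shares of all genes in the fits with 1 library left out are not set beside these counts. Taken alone, these counts do not tell a shift of the members from a shift of calls over all genes. Of the 57 calls of a member on a day, 31 were kept when each library of the 2 groups was left out in turn. The 2 members not tested were both higher in counts in WT: Mx1, a GTPase that blocks influenza virus, had 2 counts over all FlncKO libraries and 56 over all WT libraries. Oas1a, which makes the signal that activates RNase L, had 4 over the FlncKO libraries and 98 over the WT libraries.

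**Figure D1:**
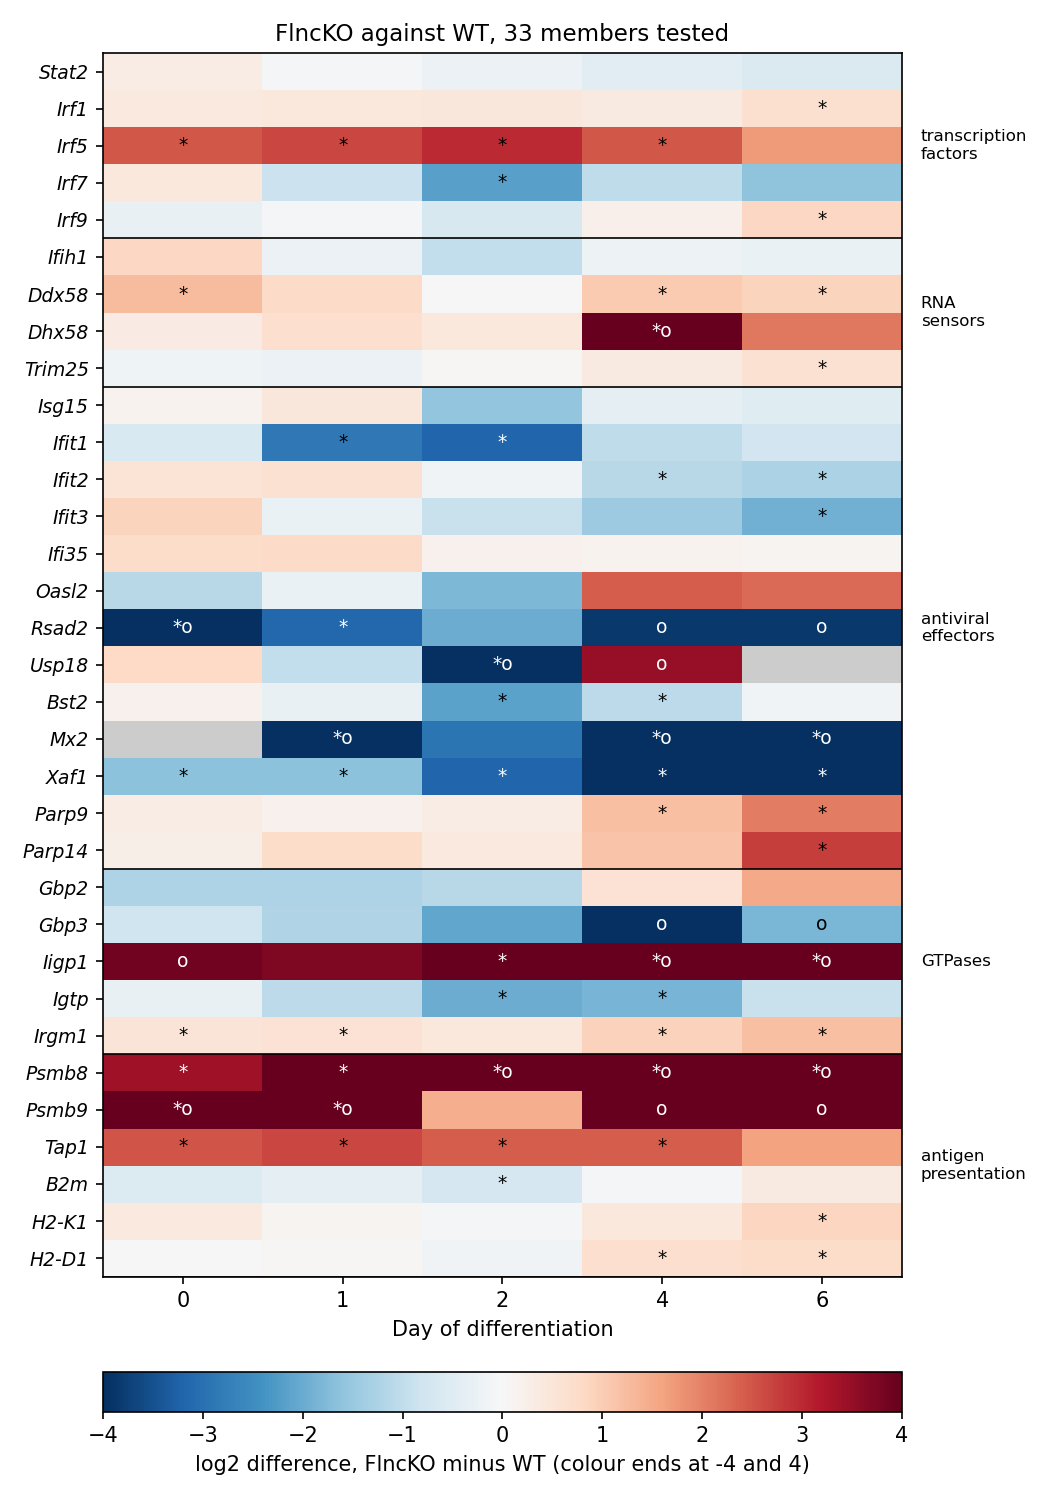
Fitted log2 difference of FlncKO minus WT cells for the 33 tested members (down, by class) at days 0, 1, 2, 4 and 6 (across); an asterisk marks an adjusted p under 0.05 and an o a group with 3 counts or fewer, where the fitted value is no estimate of size, and grey marks too few counts in both lines. Psmb8, Tap1 and Irf5 are red from day 0 to day 4 and Xaf1 is blue on every day.

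Of the 5 transcription factors that carry the signal, Irf5 was higher in FlncKO cells from day 0 to day 4, Irf1 and Irf9 were higher at day 6, Irf7 was lower at day 2, and Stat2 passed on no day. Irf5 acts downstream of Toll-like receptors and drives inflammatory cytokine genes. On day 0, Irf5 had 8.04, 11.1, 16.8 and 11.7 CPM in FlncKO libraries, against 1.47, 2.15, 4.76 and 0.215 CPM in WT libraries. On day 1, Irf5 had 1.07, 4.06, 3.46 and 2.65 CPM in FlncKO libraries, against 0.306, 0.202, 0.356 and 0.866 CPM in WT libraries. Each FlncKO library lay above each WT library on both days. On day 2, Irf5 had 0.804, 2.10 and 1.59 CPM in FlncKO libraries, against 0.171, 0.343, 0.0953 and 0.108 CPM in WT libraries, again without overlap. On day 4, Irf5 had 0.740, 1.34, 0.191 and 0.378 CPM in FlncKO libraries, against 0.0601, 0, 0.316 and 0 CPM in WT libraries. On day 6, Irf5 had 0.694, 0.272, 0.930 and 0.491 CPM in FlncKO libraries, against 0.503, 0.157, 0.127 and 0 CPM in WT libraries. The groups overlapped on these last days. Irf5 log2 differences were 2.48 ± 0.85, 2.67 ± 0.54, 2.97 ± 0.46, 2.48 ± 0.68 and 1.70 ± 0.60 at days 0, 1, 2, 4 and 6 (adjusted p = 0.00661, 0.00555, 0.00595, 0.0332 and 0.159). Throughout, the value after ± on a log2 difference is the SE of the difference of mean log2 CPM (prior count 2). It is not the SE of the fitted value, and the p-values do not rest on it. The day 4 call was lost without FlncKO day 4 replicates 1 or 3 or WT day 4 replicates 1, 3 or 5 (adjusted p = 0.0656 to 0.129) and also with counts halved (adjusted p = 0.0683), and with the replicate block (log2 difference 2.39, adjusted p = 0.0572). Without WT day 4 replicate 4, Irf5 at day 4 came to a log2 difference of 4.44 (adjusted p = 0.00607). Irf5 fell between day 0 and day 6 in both lines, by 4.26 on the log2 scale in FlncKO cells (adjusted p = 1.77e-05) and by 3.49 in WT cells (adjusted p = 0.000645). Irf5 lies on chromosome 6 (GRCm38, 29526625 to 29541871, plus strand), and starts 64.7 kb past the end of Flnc, with Atp6v1f, Atp6v1fnb and Kcp between them. Of its annotated exon bases 14.1% overlap Tnpo3 on the other strand, and the strand setting of the counting is not given in the sources used here.

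Irf1, the factor first found at the interferon beta promoter and a driver of MHC class I genes, was higher in 1 of 5 comparisons. On day 0, Irf1 had 50.0, 45.6, 51.3 and 41.5 CPM in FlncKO libraries, against 32.2, 32.3, 49.8 and 29.5 CPM in WT libraries. On day 1, Irf1 had 49.6, 56.2, 52.4 and 43.6 CPM in FlncKO libraries, against 25.5, 38.6, 50.4 and 35.5 CPM in WT libraries. WT day 0 replicate 4 was high for its group. On day 2, Irf1 had 38.1, 37.2 and 34.2 CPM in FlncKO libraries, against 32.9, 26.0, 19.4 and 27.7 CPM in WT libraries, and the groups did not overlap. On day 4, Irf1 had 29.1, 34.0, 38.6 and 32.4 CPM in FlncKO libraries, against 27.4, 28.5, 30.9 and 18.6 CPM in WT libraries. On day 6, Irf1 had 37.2, 23.4, 44.8 and 38.2 CPM in FlncKO libraries, against 24.9, 19.0, 25.2 and 24.1 CPM in WT libraries. Irf1 log2 differences were 0.39 ± 0.18, 0.43 ± 0.22, 0.46 ± 0.16, 0.35 ± 0.18 and 0.63 ± 0.22 at days 0, 1, 2, 4 and 6 (adjusted p = 0.193, 0.149, 0.148, 0.219 and 0.0202), so day 6 alone passed. That call was lost without FlncKO day 6 replicates 1 or 4 or WT day 6 replicate 3 (adjusted p = 0.0554 to 0.0963). With the replicate block Irf1 also passed at day 0 (log2 difference 0.42, adjusted p = 0.0425) and day 1 (log2 difference 0.46, adjusted p = 0.0274). Irf9, the DNA-binding partner of Stat2, averaged 10.3 ± 1.31 CPM in FlncKO cells and 5.85 ± 0.905 CPM in WT cells at day 6 (SD, n = 4 each), a log2 difference of 0.82 ± 0.14 (adjusted p = 0.0128) with no overlap. At day 2 it averaged 14.4 ± 1.63 CPM in FlncKO cells and 22.3 ± 8.63 CPM in WT cells (n = 3 and 4), a difference that missed the threshold (log2 difference -0.63 ± 0.27, adjusted p = 0.0964). Irf7, the main amplifier of type I interferon genes, averaged 0.725 ± 0.371 CPM in FlncKO cells and 3.31 ± 1.62 CPM in WT cells at day 2, with each FlncKO library below each WT library (log2 difference -2.18 ± 0.55, adjusted p = 0.0348). The Irf7 call was lost without FlncKO day 2 replicates 1 or 5 or WT day 2 replicates 3, 4 or 5 (adjusted p = 0.0530 to 0.133) and also without a filter on low counts or without the 3 libraries low in correlation (adjusted p = 0.050 to 0.0651). Stat2 averaged 23.4 ± 4.52 CPM in FlncKO cells and 34.9 ± 9.20 CPM in WT cells at day 6 (log2 difference -0.58 ± 0.25, adjusted p = 0.109).

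Among the 4 genes of cytosolic RNA sensing, Ddx58 was higher in FlncKO cells at days 0, 4 and 6, Dhx58 at day 4 and Trim25 at day 6. Ddx58 encodes RIG-I, which binds viral RNA with a free triphosphate end. On day 0, Ddx58 had 27.5, 6.44, 13.6 and 9.99 CPM in FlncKO libraries, against 8.21, 4.24, 7.09 and 4.66 CPM in WT libraries. On day 1, Ddx58 had 27.4, 13.0, 28.5 and 21.4 CPM in FlncKO libraries, against 12.8, 11.6, 13.1 and 15.8 CPM in WT libraries. FlncKO replicate 1 was the high value of day 0. On day 2, Ddx58 had 13.7, 16.0 and 15.5 CPM in FlncKO libraries, against 10.3, 12.5, 19.8 and 16.9 CPM in WT libraries. On day 4, Ddx58 had 13.4, 6.60, 11.7 and 11.7 CPM in FlncKO libraries, against 5.77, 5.21, 3.58 and 6.51 CPM in WT libraries. On day 6, Ddx58 had 14.7, 10.6, 9.16 and 9.73 CPM in FlncKO libraries, against 8.29, 6.91, 3.87 and 4.83 CPM in WT libraries. Each FlncKO library exceeded each WT library at days 4 and 6. Ddx58 log2 differences were 1.25 ± 0.49, 0.76 ± 0.27, 0.018 ± 0.22, 1.05 ± 0.29 and 0.89 ± 0.29 at days 0, 1, 2, 4 and 6 (adjusted p = 0.00713, 0.0983, 0.982, 0.0166 and 0.0447). The day 0 call was lost without FlncKO day 0 replicate 1 (adjusted p = 0.108) and also fitting only the 2 groups (adjusted p = 0.0734), with a log2 difference without FlncKO replicate 1 of 0.73. The day 4 call was lost without FlncKO day 4 replicate 1 or WT day 4 replicate 4 (adjusted p = 0.0536 to 0.0669), and the day 6 call without FlncKO day 6 replicates 1, 3 or 5 or WT day 6 replicates 3, 4 or 5 (adjusted p = 0.0544 to 0.156) and also with DESeq2 size factors, without a filter on low counts or with counts halved (adjusted p = 0.0517 to 0.0690). With the replicate block Ddx58 also passed at day 1 (log2 difference 0.71, adjusted p = 0.0196).

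Trim25, the ubiquitin ligase that activates RIG-I, was higher late. On day 0, Trim25 had 37.7, 28.0, 29.9 and 35.9 CPM in FlncKO libraries, against 42.0, 38.3, 28.5 and 39.5 CPM in WT libraries. On day 1, Trim25 had 60.9, 26.4, 47.0 and 37.4 CPM in FlncKO libraries, against 55.0, 31.8, 48.8 and 65.4 CPM in WT libraries. Both days overlapped. On day 2, Trim25 had 56.2, 57.8 and 64.0 CPM in FlncKO libraries, against 54.2, 47.4, 63.4 and 66.4 CPM in WT libraries. On day 4, Trim25 had 50.8, 46.4, 48.0 and 42.1 CPM in FlncKO libraries, against 35.1, 35.8, 35.9 and 38.7 CPM in WT libraries. On day 6, Trim25 had 46.4, 46.5, 45.6 and 40.7 CPM in FlncKO libraries, against 26.6, 39.6, 27.5 and 22.9 CPM in WT libraries. The groups did not overlap at days 4 and 6. Trim25 log2 differences were -0.17 ± 0.16, -0.23 ± 0.34, 0.035 ± 0.12, 0.36 ± 0.065 and 0.62 ± 0.17 at days 0, 1, 2, 4 and 6 (adjusted p = 0.597, 0.491, 0.946, 0.191 and 0.0212). The day 6 call was lost without WT day 6 replicates 1, 4 or 5 (adjusted p = 0.0526 to 0.106) and also without a filter on low counts (adjusted p = 0.0530). Dhx58, a regulator of RIG-I and MDA5 without signalling domains, had 25 counts in FlncKO libraries at day 4 and 0 in WT libraries, which puts it at least 8.46-fold higher if the WT group is set to the limit that 0 allows, 3 counts in all (adjusted p = 0.00229). These limits and the counting intervals cover counting error only. They take each count as a separate read. If mates of a read pair were counted apart, the limits are set too high and the intervals too narrow. Ifih1, which encodes MDA5, passed on no day and averaged 1.74 ± 0.894 CPM in FlncKO cells and 3.45 ± 1.38 CPM in WT cells at day 2 (log2 difference -1.0 ± 0.50, adjusted p = 0.235).

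The direct antiviral effectors split. Xaf1, Mx2, Rsad2, Ifit1, Ifit2, Ifit3, Bst2 and Usp18 were lower in FlncKO cells on at least 1 day, Parp9 and Parp14 were higher late, and Isg15, Ifi35 and Oasl2 passed on no day. Xaf1, an interferon-induced partner of the apoptosis inhibitor XIAP, was lower on all 5 days and had the smallest p of all members over the days together (adjusted p = 6.99e-13). On day 0, Xaf1 had 1.55, 0.876, 1.20 and 0.952 CPM in FlncKO libraries, against 6.81, 2.92, 2.91 and 1.65 CPM in WT libraries. On day 1, Xaf1 had 2.33, 3.55, 1.62 and 1.54 CPM in FlncKO libraries, against 6.81, 8.01, 3.32 and 9.66 CPM in WT libraries. The groups were apart at day 0 and overlapped at day 1. On day 2, Xaf1 had 1.10, 2.19 and 2.33 CPM in FlncKO libraries, against 15.3, 18.5, 10.9 and 23.0 CPM in WT libraries. On day 4, Xaf1 had 0.592, 1.03, 0.762 and 1.40 CPM in FlncKO libraries, against 20.2, 14.8, 11.6 and 23.2 CPM in WT libraries. On day 6, Xaf1 had 1.11, 1.63, 1.06 and 0.818 CPM in FlncKO libraries, against 28.0, 15.7, 11.4 and 37.4 CPM in WT libraries. No FlncKO library reached the lowest WT library on these 3 days. Xaf1 log2 differences were -1.63 ± 0.44, -1.64 ± 0.42, -3.18 ± 0.40, -4.19 ± 0.33 and -4.34 ± 0.43 at days 0, 1, 2, 4 and 6 (adjusted p = 0.00511, 0.00355, 7.81e-06, 1.36e-08 and 9.56e-09). The day 0 call was lost without WT day 0 replicate 1 (adjusted p = 0.0620). Xaf1 rose in WT cells between day 0 and day 6 (log2 difference 2.69 ± 0.56, adjusted p = 1.39e-06) and did not pass in FlncKO cells (log2 difference -0.022 ± 0.25, adjusted p = 0.980). The difference between the lines changed over the days (genotype by day, adjusted p = 0.000880).

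Mx2, a dynamin-like antiviral GTPase annotated as a polymorphic pseudogene in the reference genome, was counted almost only in WT cells. On day 0, Mx2 had 0 counts in both lines. On day 1, Mx2 had 0 CPM in all 4 FlncKO libraries, against 0.0383, 0.302, 0.237 and 0.775 CPM in WT libraries, at least 8.18-fold lower in FlncKO cells against that limit (adjusted p = 0.0128). On day 2, Mx2 had 0, 0.351 and 0 CPM in FlncKO libraries, against 0.300, 1.60, 1.19 and 0.813 CPM in WT libraries (log2 difference -2.93 ± 0.83, adjusted p = 0.0639). That difference passed with the replicate block (log2 difference -3.38, adjusted p = 0.0476), with counts halved (log2 difference -2.89, adjusted p = 0.0230), without WT replicate 1 (log2 difference -3.23, adjusted p = 0.0493) and without FlncKO replicate 3 (adjusted p = 0.0116), which leaves FlncKO at 0 counts. On day 4, Mx2 had 0, 0, 0 and 0.108 CPM in FlncKO libraries, against 1.68, 0.186, 1.37 and 0.692 CPM in WT libraries. On day 6, Mx2 had 0, 0.272, 0 and 0 CPM in FlncKO libraries, against 1.76, 1.26, 1.52 and 0.724 CPM in WT libraries. The groups did not overlap at days 1, 4 and 6. The WT level was 33.5 times the FlncKO level at day 4 (95% counting interval 8.92 to 282, adjusted p = 0.00439) and 28.0 times at day 6 (7.43 to 237, adjusted p = 0.00747). The day 1 call was lost without WT day 1 replicate 5 (adjusted p = 0.0555). Without the 1 FlncKO library that held counts, the ratio gave way to a limit of at least 15.7-fold at day 4 and 15.4-fold at day 6, both lower in FlncKO cells. Rsad2, which encodes viperin, had 0 counts in FlncKO libraries and 60 in WT libraries at day 0, at least 18.5-fold lower (adjusted p = 0.00357). At day 1 Rsad2 had 0.0971, 0, 0 and 0.171 CPM in FlncKO libraries, against 0.612, 0.302, 0.594 and 1.37 CPM in WT libraries (log2 difference -3.14 ± 0.51, adjusted p = 0.0439), a call lost without FlncKO day 1 replicates 1, 3 or 4 or WT day 1 replicates 1, 4 or 5 (adjusted p = 0.0587 to 0.134) and also by DESeq2, without a filter on low counts or without 2 or all 3 of the libraries low in correlation (adjusted p = 0.0671 to 0.0957).

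Ifit2, a tetratricopeptide protein that inhibits translation, was lower late. On day 0, Ifit2 had 18.8, 18.3, 19.8 and 35.3 CPM in FlncKO libraries, against 21.3, 19.5, 6.60 and 15.8 CPM in WT libraries. On day 1, Ifit2 had 34.5, 22.1, 49.9 and 41.2 CPM in FlncKO libraries, against 28.1, 22.1, 23.7 and 22.9 CPM in WT libraries. Both days overlapped, with FlncKO day 0 replicate 5 high. On day 2, Ifit2 had 15.5, 23.9 and 27.0 CPM in FlncKO libraries, against 22.2, 27.2, 14.1 and 33.5 CPM in WT libraries. On day 4, Ifit2 had 15.7, 6.70, 13.4 and 11.7 CPM in FlncKO libraries, against 37.6, 10.4, 23.2 and 31.0 CPM in WT libraries. On day 6, Ifit2 had 12.9, 16.6, 18.3 and 12.2 CPM in FlncKO libraries, against 54.0, 34.0, 27.8 and 28.5 CPM in WT libraries. At day 6 each FlncKO library lay below each WT library. Ifit2 log2 differences were 0.54 ± 0.44, 0.61 ± 0.26, -0.13 ± 0.36, -1.10 ± 0.48 and -1.26 ± 0.26 at days 0, 1, 2, 4 and 6 (adjusted p = 0.290, 0.232, 0.875, 0.0154 and 0.00586), and the day 4 call was lost without FlncKO day 4 replicate 3 or WT day 4 replicate 1 (adjusted p = 0.0671 to 0.0819) and also fitting only the 2 groups (adjusted p = 0.0547). The difference between the lines changed over the days (genotype by day, adjusted p = 0.0104). Ifit3, a partner of Ifit1 and Ifit2, averaged 0.775 ± 0.608 CPM in FlncKO cells and 3.04 ± 1.55 CPM in WT cells at day 6 (log2 difference -1.93 ± 0.95, adjusted p = 0.0333), a call lost without FlncKO day 6 replicates 1 or 4 or WT day 6 replicates 1 or 5 (adjusted p = 0.0521 to 0.111). Ifit1, which binds foreign RNA caps, averaged 0.392 ± 0.313 CPM in FlncKO cells and 3.02 ± 1.61 CPM in WT cells at day 1 (log2 difference -2.87 ± 0.75, adjusted p = 0.0132) and 0.522 ± 0.159 CPM in FlncKO cells and 4.70 ± 2.79 CPM in WT cells at day 2 (log2 difference -3.16 ± 0.71, adjusted p = 0.0145). The day 2 call was lost without FlncKO day 2 replicates 1, 3 or 5 (adjusted p = 0.0516 to 0.0650), and with the replicate block (log2 difference -2.63, adjusted p = 0.0558). Bst2, the tetherin that holds budding viruses, averaged 2.63 ± 1.17 CPM in FlncKO cells and 11.5 ± 6.58 CPM in WT cells at day 2 (log2 difference -2.13 ± 0.61, adjusted p = 0.000626) and 1.72 ± 1.11 CPM in FlncKO cells and 3.54 ± 0.863 CPM in WT cells at day 4 (log2 difference -1.06 ± 0.53, adjusted p = 0.0471). The Bst2 groups overlapped on both days and the day 4 call was lost without FlncKO day 4 replicates 1 or 5 or WT day 4 replicates 1, 4 or 5 (adjusted p = 0.0545 to 0.154) and also without a filter on low counts, with counts halved or fitting only the 2 groups (adjusted p = 0.0504 to 0.160). Usp18, which removes Isg15 from proteins and damps the receptor, was lower in FlncKO cells at day 2, when the WT level was 35.2 times the FlncKO level (95% counting interval 9.50 to 295, adjusted p = 0.0142). The Usp18 call was lost without FlncKO day 2 replicates 1 or 5 (adjusted p = 0.0697 to 0.0757), and with the replicate block (adjusted p = 0.0726).

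Parp9, which pairs with the ubiquitin ligase Dtx3l to enhance interferon signalling, was higher in FlncKO cells late. On day 0, Parp9 had 7.49, 6.29, 6.10 and 10.2 CPM in FlncKO libraries, against 7.60, 5.63, 5.82 and 5.49 CPM in WT libraries. On day 1, Parp9 had 11.4, 9.56, 13.9 and 14.0 CPM in FlncKO libraries, against 10.4, 11.7, 11.0 and 10.1 CPM in WT libraries. On day 2, Parp9 had 5.84, 10.6 and 16.3 CPM in FlncKO libraries, against 6.55, 8.84, 8.72 and 11.0 CPM in WT libraries. The groups overlapped on these 3 days. On day 4, Parp9 had 6.51, 7.22, 7.86 and 12.3 CPM in FlncKO libraries, against 3.61, 2.23, 3.06 and 5.65 CPM in WT libraries. On day 6, Parp9 had 5.55, 9.51, 12.6 and 13.7 CPM in FlncKO libraries, against 2.26, 2.83, 2.15 and 2.90 CPM in WT libraries. At days 4 and 6 each FlncKO library lay above each WT library. Parp9 log2 differences were 0.29 ± 0.20, 0.18 ± 0.14, 0.31 ± 0.45, 1.21 ± 0.34 and 2.04 ± 0.31 at days 0, 1, 2, 4 and 6 (adjusted p = 0.518, 0.730, 0.553, 0.00184 and 4.33e-06). Parp9 fell in WT cells between day 0 and day 6 (log2 difference -1.28 ± 0.15, adjusted p = 0.000706), while the FlncKO value was 0.47 ± 0.33 (adjusted p = 0.185), and genotype by day passed (adjusted p = 0.00631). Of its exon bases 9.40% overlap Dtx3l on the other strand. Parp14, an ADP-ribosyltransferase of the same family, averaged 1.85 ± 0.128 CPM in FlncKO cells and 0.257 ± 0.370 CPM in WT cells at day 6 with no overlap (log2 difference 2.77 ± 0.74, adjusted p = 0.00476). The effectors that passed on no day included Isg15, the ubiquitin-like modifier, at 0.979 ± 0.671 CPM in FlncKO cells and 2.92 ± 1.74 CPM in WT cells at day 2 (log2 difference -1.57 ± 0.95, adjusted p = 0.154). Oasl2 had 0.635 ± 0.642 CPM in FlncKO cells and 0.103 ± 0.125 CPM in WT cells at day 6 (log2 difference 2.27 ± 0.98, adjusted p = 0.0815), and Ifi35 34.4 ± 5.77 CPM in FlncKO cells and 20.6 ± 8.20 CPM in WT cells at day 0 (log2 difference 0.74 ± 0.28, adjusted p = 0.11). Ifi35 passed at day 0 with the replicate block (log2 difference 0.79, adjusted p = 0.0160).

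Of the 5 interferon-inducible GTPases, Irgm1 and Iigp1 were higher in FlncKO cells, Igtp was lower at days 2 and 4, and Gbp2 and Gbp3 passed on no day. Irgm1, which governs the other immunity-related GTPases and autophagy, was higher on 4 of the 5 days. On day 0, Irgm1 had 67.9, 37.2, 43.0 and 35.4 CPM in FlncKO libraries, against 41.2, 34.2, 29.0 and 22.7 CPM in WT libraries. On day 1, Irgm1 had 60.3, 47.5, 52.5 and 44.3 CPM in FlncKO libraries, against 40.2, 31.9, 30.9 and 33.7 CPM in WT libraries. On day 2, Irgm1 had 45.2, 40.5 and 45.1 CPM in FlncKO libraries, against 31.4, 32.7, 33.5 and 32.4 CPM in WT libraries. The groups were apart at days 1 and 2. On day 4, Irgm1 had 38.8, 48.7, 44.9 and 53.5 CPM in FlncKO libraries, against 22.7, 25.4, 19.0 and 30.3 CPM in WT libraries. On day 6, Irgm1 had 38.0, 52.4, 40.9 and 49.1 CPM in FlncKO libraries, against 17.6, 21.8, 17.9 and 21.4 CPM in WT libraries. They were apart again at days 4 and 6. Irgm1 log2 differences were 0.53 ± 0.28, 0.58 ± 0.13, 0.42 ± 0.056, 0.93 ± 0.17 and 1.20 ± 0.14 at days 0, 1, 2, 4 and 6 (adjusted p = 0.0490, 0.0262, 0.149, 0.000256 and 9.59e-06). Day 2 passed too with the replicate block (log2 difference 0.44, adjusted p = 0.0237). The day 0 call was lost without FlncKO day 0 replicates 1 or 4 or WT day 0 replicates 3, 4 or 5 (adjusted p = 0.0606 to 0.310) and also without a filter on low counts, fitting only the 2 groups or without 2 or all 3 of the libraries low in correlation (adjusted p = 0.0688 to 0.233), and the day 1 call without FlncKO day 1 replicate 1 or WT day 1 replicates 3, 4 or 5 (adjusted p = 0.0623 to 0.0792) and also fitting only the 2 groups (adjusted p = 0.0627). Without FlncKO day 0 replicate 1 the Irgm1 log2 difference at day 0 was 0.28. Irgm1 fell in WT cells between day 0 and day 6 (log2 difference -0.69 ± 0.20, adjusted p = 0.00274), and its value in FlncKO cells was -0.024 ± 0.24 (adjusted p = 0.936).

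Iigp1, a GTPase that breaks the vacuoles of intracellular parasites, was near 0 in WT cells throughout. On day 0, Iigp1 had 1.37, 0, 0 and 0 CPM in FlncKO libraries, against 0.0717, 0, 0 and 0 CPM in WT libraries. On day 1, Iigp1 had 3.40, 0, 0 and 0.513 CPM in FlncKO libraries, against 0.0765, 0, 0 and 0.182 CPM in WT libraries. On day 2, Iigp1 had 6.27, 0.263 and 0.858 CPM in FlncKO libraries, against 0, 0.0762, 0.191 and 0.217 CPM in WT libraries. FlncKO replicate 1 held the highest value on each of these days. On day 4, Iigp1 had 22.7, 3.51, 2.38 and 5.02 CPM in FlncKO libraries, against 0 CPM in all 4 WT libraries. On day 6, Iigp1 had 40.8, 14.1, 10.8 and 5.56 CPM in FlncKO libraries, against 0 CPM in all 4 WT libraries. The groups did not overlap at days 2, 4 and 6. Against 3 counts in the whole WT group, Iigp1 was at least 164-fold higher in FlncKO cells at day 4 (adjusted p = 0.000545) and at least 224-fold at day 6 (adjusted p = 0.000278). Without FlncKO replicate 1 of the day, these limits were 76.4-fold at day 4 and 144-fold at day 6. At day 2 the log2 difference was 4.35 ± 1.26 (adjusted p = 0.0340), a call lost without FlncKO day 2 replicate 1 or WT day 2 replicates 1, 3, 4 or 5 (adjusted p = 0.0547 to 0.433) and also by DESeq2, without a filter on low counts or without the 3 libraries low in correlation (adjusted p = 0.0521 to 0.117) and with the replicate block (log2 difference 3.90, adjusted p = 0.0619). It was 2.15 without FlncKO day 2 replicate 1. Days 0 and 1 did not pass (adjusted p = 0.150 and 0.0876). Iigp1 rose in FlncKO cells between day 0 and day 6 (log2 difference 5.57 ± 1.12, adjusted p = 0.00112). Igtp, of the same family, averaged 0.697 ± 0.407 CPM in FlncKO cells and 2.79 ± 1.04 CPM in WT cells at day 2 (log2 difference -1.99 ± 0.49, adjusted p = 0.0446) and 0.650 ± 0.629 CPM in FlncKO cells and 2.44 ± 0.587 CPM in WT cells at day 4 (log2 difference -1.86 ± 0.84, adjusted p = 0.0283), without overlap on either day. The day 2 call was lost without FlncKO day 2 replicates 1 or 5 or WT day 2 replicates 3, 4 or 5 (adjusted p = 0.0515 to 0.171) and also without a filter on low counts (adjusted p = 0.0608). The day 4 call was lost without FlncKO day 4 replicates 1, 3 or 4 or WT day 4 replicate 5 (adjusted p = 0.0661 to 0.0732) and also fitting only the 2 groups (adjusted p = 0.0952). Of the Igtp exon bases 8.01% overlap Irgm2 on the same strand. The guanylate-binding protein gene Gbp2 averaged 0.518 ± 0.717 CPM in FlncKO cells and 1.25 ± 0.755 CPM in WT cells at day 0 (log2 difference -1.22 ± 0.93, adjusted p = 0.314) and 1.01 ± 0.647 CPM in FlncKO cells and 0.341 ± 0.275 CPM in WT cells at day 6 (log2 difference 1.51 ± 0.80, adjusted p = 0.229). It passed at day 0 with the replicate block (log2 difference -1.89, adjusted p = 0.0423). At days 1 and 2 every FlncKO library lay below every WT library without passing. Gbp3 had at most 0.813 CPM in any library.

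**Figure D2:**
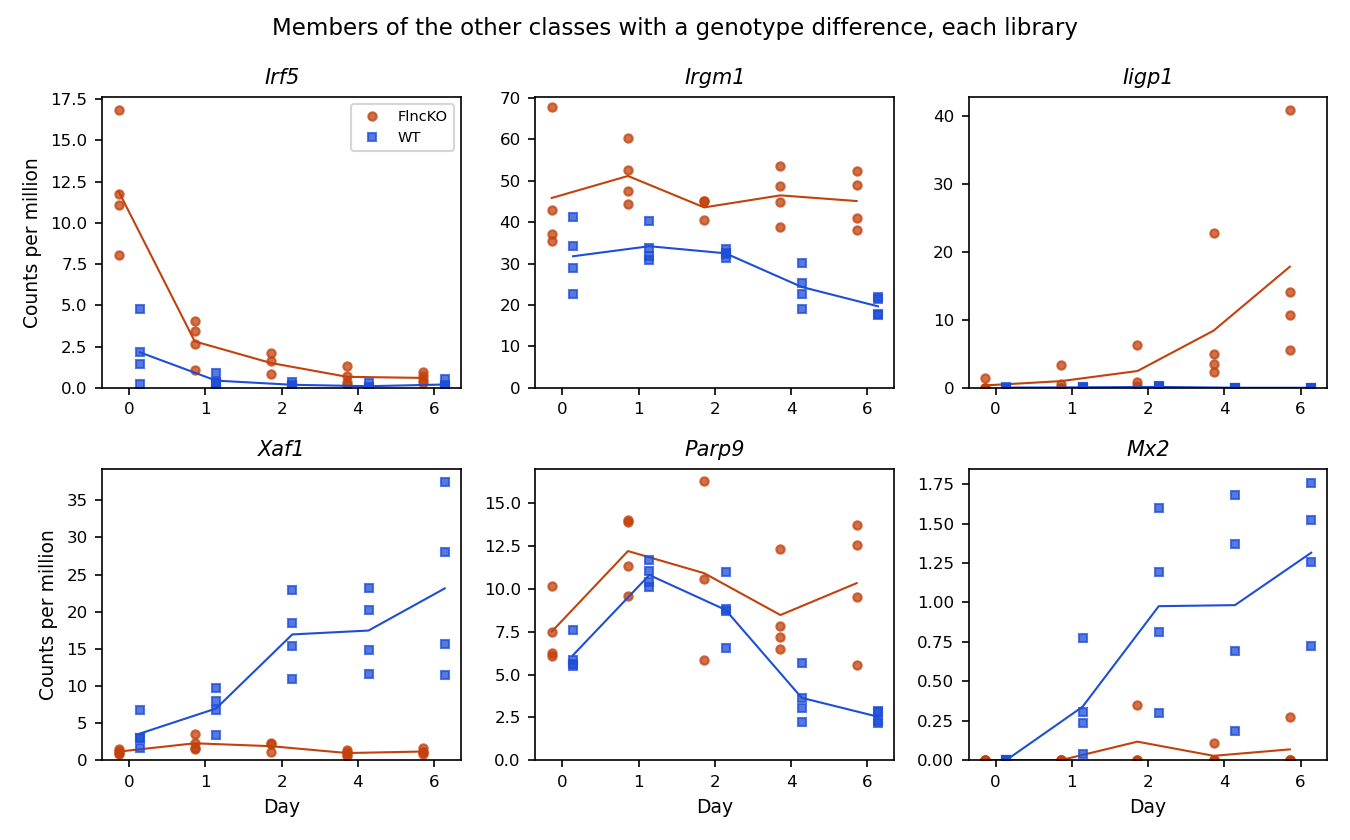
CPM of 6 members in each library by day (days evenly spaced), FlncKO as orange circles to the left and WT as blue squares to the right, with lines through the group means. WT libraries rise in Xaf1 and Mx2 while FlncKO libraries stay low, and Iigp1 is near 0 in every WT library.

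All 6 antigen presentation genes differed between the lines over the days together, as did the 44.7% of all genes given above. Of the genes of peptide supply, Psmb8 was called higher in FlncKO cells on all 5 days, Tap1 from day 0 to day 4 and Psmb9 at days 0 and 1. The MHC class I heavy chain genes H2-K1 and H2-D1 were called higher at day 6, H2-D1 at day 4 too. Their light chain B2m was called lower at day 2. Genotype by day passed for 0 of these 6 genes in the model of all groups, where 7.74% of all genes passed. It passed for B2m with the replicate block. A different course of peptide supply and heavy chain genes was therefore not shown. Psmb8 and Psmb9 encode immunoproteasome subunits, and Tap1 with Tap2 forms the pump that carries peptides to class I. Psmb9, Tap1, Psmb8 and Tap2 lie side by side within 34.3 kb of chromosome 17 (GRCm38, 34181987 to 34216321), and the RefSeq starts of Psmb9 and Tap1, which point away from each other, are 225 bases apart. On day 0, Psmb8 had 1.44, 1.24, 1.58 and 1.11 CPM in FlncKO libraries, against 0, 0.139, 0.388 and 0 CPM in WT libraries. On day 1, Psmb8 had 2.14, 6.43, 3.35 and 2.31 CPM in FlncKO libraries, against 0, 0.504, 0.119 and 0.0912 CPM in WT libraries. On day 2, Psmb8 had 0.677, 2.28 and 1.35 CPM in FlncKO libraries, against 0, 0.0762, 0 and 0 CPM in WT libraries. Each FlncKO library lay above each WT library. On day 4, Psmb8 had 0.740, 1.65, 0.953 and 2.16 CPM in FlncKO libraries, against 0 CPM in all 4 WT libraries. On day 6, Psmb8 had 0.833, 1.09, 0.664 and 1.96 CPM in FlncKO libraries, against 0 CPM in all 4 WT libraries. The groups stayed apart. Psmb8 log2 differences were 3.38 ± 0.54 and 4.30 ± 0.63 at days 0 and 1 (adjusted p = 0.00637 and 0.000603). At day 2 the FlncKO level was 63.9 times the WT level (95% counting interval 17.2 to 535, adjusted p = 0.000379). Against the same limit of 3 counts, Psmb8 was at least 29.1-fold higher at day 4 (adjusted p = 0.000104) and at least 17.1-fold at day 6 (adjusted p = 0.000501). All 5 calls were kept with each library of the day left out. The ratio at day 2 was 42.4 without FlncKO replicate 3, and the limit at day 6 was 11.1-fold without WT replicate 4. Of the Psmb8 exon bases 14.7% overlap an antisense transcript that is not in the count table.

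Psmb9 was called higher in FlncKO cells at days 0 and 1. On day 0, Psmb9 had 2.27, 0.928, 1.20 and 1.27 CPM in FlncKO libraries, against 0 CPM in all 4 WT libraries, at least 51.9-fold higher in FlncKO cells (adjusted p = 0.00100). On day 1, Psmb9 had 0, 4.40, 1.08 and 0.685 CPM in FlncKO libraries, against 0, 0.101, 0 and 0 CPM in WT libraries, 50.2 times the WT level (95% counting interval 13.5 to 421, adjusted p = 0.00368). The groups overlapped at day 1 through a FlncKO library at 0, and without FlncKO replicate 3 the ratio at day 1 was 24.4. On day 2, Psmb9 had 0.0847, 0.351 and 0.123 CPM in FlncKO libraries, against 0.0856, 0.152, 0 and 0 CPM in WT libraries. On day 4, Psmb9 had 0, 0.413, 0 and 0.108 CPM in FlncKO libraries, against 0 CPM in all 4 WT libraries. On day 6, Psmb9 had 0.278, 0, 0.266 and 0.491 CPM in FlncKO libraries, against 0 CPM in all 4 WT libraries. These 3 days did not pass (adjusted p = 0.510, 0.158 and 0.0651). With the replicate block day 6 passed (adjusted p = 0.0386). Exons of Psmb9 and Tap1 overlap by 212 bases on opposite strands.

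Tap1 followed the same order of lines. On day 0, Tap1 had 7.01, 3.50, 7.17 and 5.16 CPM in FlncKO libraries, against 0.574, 0.904, 2.23 and 0.359 CPM in WT libraries. On day 1, Tap1 had 4.08, 2.88, 6.49 and 5.48 CPM in FlncKO libraries, against 0.765, 1.51, 0.475 and 0.182 CPM in WT libraries. On day 2, Tap1 had 2.88, 3.51 and 2.7 CPM in FlncKO libraries, against 1.07, 0.457, 0.667 and 0 CPM in WT libraries. No WT library reached a FlncKO library. On day 4, Tap1 had 2.22, 2.68, 1.81 and 1.84 CPM in FlncKO libraries, against 0.481, 1.12, 0.105 and 0 CPM in WT libraries. On day 6, Tap1 had 2.50, 0.815, 3.65 and 2.13 CPM in FlncKO libraries, against 1.26, 1.26, 0.507 and 0 CPM in WT libraries. The groups were apart at day 4 and overlapped at day 6. Tap1 log2 differences were 2.50 ± 0.55, 2.68 ± 0.58, 2.43 ± 0.76, 2.43 ± 0.79 and 1.60 ± 0.97 at days 0, 1, 2, 4 and 6 (adjusted p = 0.0148, 0.00891, 0.0246, 0.0203 and 0.119). The day 0 call was lost without WT day 0 replicates 1 or 5 (adjusted p = 0.0571 to 0.0693). The day 2 call was lost without FlncKO day 2 replicates 3 or 5 or WT day 2 replicates 3 or 5 (adjusted p = 0.0514 to 0.0717) and also fitting only the 2 groups (adjusted p = 0.0510), and the day 4 call without WT day 4 replicates 4 or 5 (adjusted p = 0.0723 to 0.0748) and also fitting only the 2 groups (adjusted p = 0.0530).

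B2m, the light chain that every class I molecule needs, was the most abundant member per kilobase of exon. On day 0, B2m had 630.4, 308, 275 and 275 CPM in FlncKO libraries, against 640.2, 482, 509 and 542 CPM in WT libraries. On day 1, B2m had 627, 531, 355 and 417 CPM in FlncKO libraries, against 621, 647, 604 and 686 CPM in WT libraries. FlncKO day 0 replicate 1 was high for its group. On day 2, B2m had 687, 473 and 575 CPM in FlncKO libraries, against 874, 951, 832 and 993 CPM in WT libraries. Every FlncKO library lay below every WT library at day 2. On day 4, B2m had 749, 762, 517 and 616 CPM in FlncKO libraries, against 484, 868, 805 and 599 CPM in WT libraries. On day 6, B2m had 669, 615, 611 and 717 CPM in FlncKO libraries, against 521, 521, 513 and 489.8 CPM in WT libraries. B2m log2 differences were -0.55 ± 0.30, -0.41 ± 0.19, -0.66 ± 0.17, -0.060 ± 0.24 and 0.35 ± 0.059 at days 0, 1, 2, 4 and 6 (adjusted p = 0.0842, 0.207, 0.0498, 0.877 and 0.238), so day 2 alone passed. At day 6 every FlncKO library lay above every WT library. The day 2 call was lost without FlncKO day 2 replicates 3 or 5 or WT day 2 replicates 1, 3, 4 or 5 (adjusted p = 0.0534 to 0.221) and also without a filter on low counts or fitting only the 2 groups (adjusted p = 0.0750 to 0.104). B2m was also called lower at day 0 with the replicate block (log2 difference -0.63, adjusted p = 0.0164) and without FlncKO day 0 replicate 1 (log2 difference -0.92, adjusted p = 0.00139). B2m rose in FlncKO cells between day 0 and day 6 (log2 difference 0.81 ± 0.29, adjusted p = 0.00301), and its value in WT cells was -0.087 ± 0.091 (adjusted p = 0.768). The class I heavy chain genes fell over the same time in both lines. H2-K1 changed by -1.02 ± 0.30 (adjusted p = 0.000712) in FlncKO cells and by -1.48 ± 0.31 (adjusted p = 4.42e-06) in WT cells, and H2-D1 by -0.87 ± 0.30 (adjusted p = 0.00249) in FlncKO cells and by -1.60 ± 0.29 (adjusted p = 8.16e-07) in WT cells. At day 6, H2-K1 averaged 51.6 ± 9.02 CPM in FlncKO cells and 28.5 ± 8.90 CPM in WT cells with no overlap (log2 difference 0.85 ± 0.26, adjusted p = 0.00612). H2-D1 averaged 72.2 ± 14.0 CPM in FlncKO cells and 45.4 ± 8.01 CPM in WT cells at day 4 (log2 difference 0.67 ± 0.19, adjusted p = 0.0262) and 53.6 ± 9.02 CPM in FlncKO cells and 32.4 ± 8.19 CPM in WT cells at day 6 (log2 difference 0.72 ± 0.22, adjusted p = 0.0167), without overlap on either day. The H2-D1 call at day 4 was lost without FlncKO day 4 replicates 3 or 5 or WT day 4 replicates 1 or 5 (adjusted p = 0.0609 to 0.103), and that at day 6 without FlncKO day 6 replicate 5 or WT day 6 replicates 1 or 3 (adjusted p = 0.0537 to 0.0759). Reads of H2-K1, H2-D1 and related class I genes can be split between near-identical copies, so their separate levels are uncertain. Per kilobase of annotated exon, B2m averaged 703 CPM over all libraries, followed by H2-D1 at 30.7, H2-K1 at 24.6 and Ifi35 at 13.1. Psmb8, Tap1 and Psmb9 averaged 0.267, 0.386 and 0.100 CPM per kilobase.

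**Figure D3:**
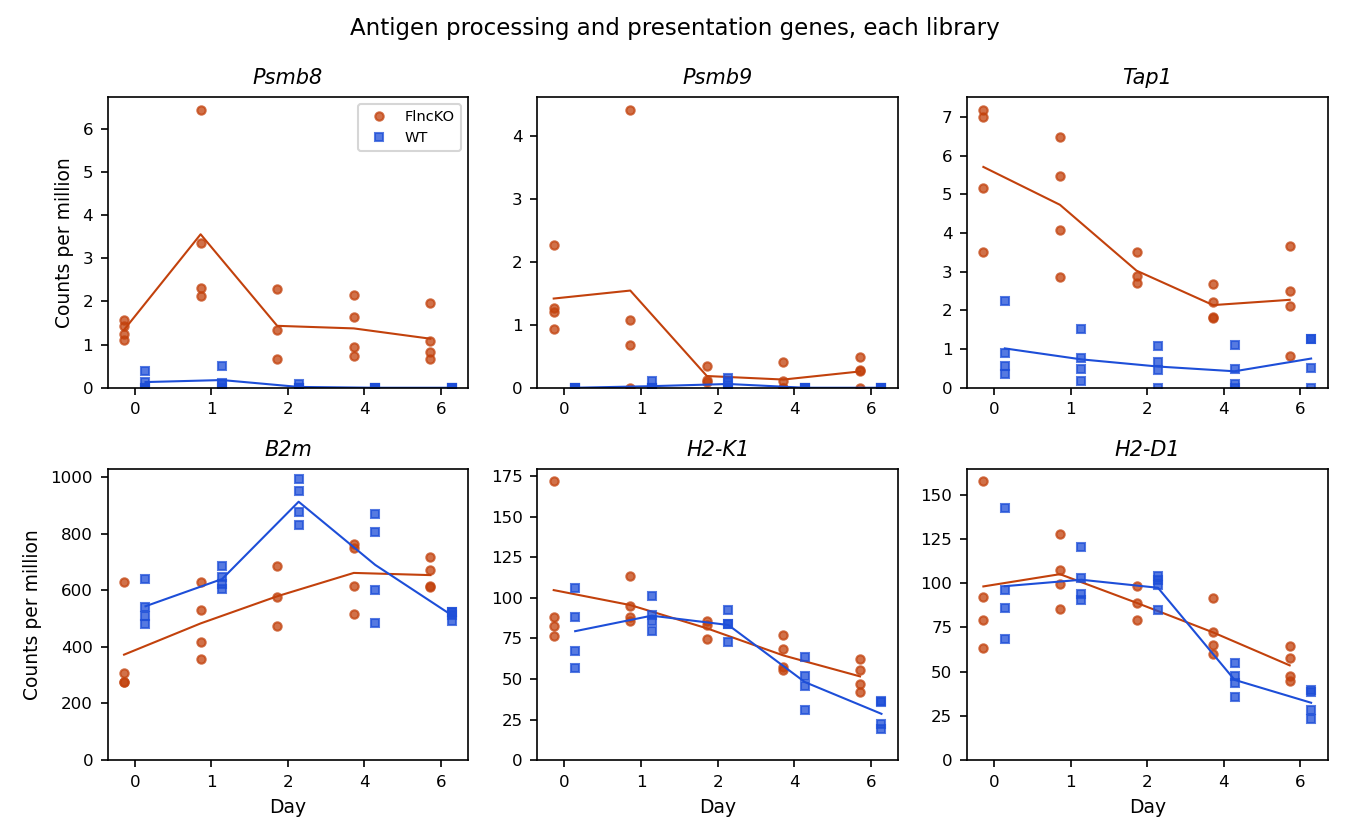
CPM of the 6 antigen presentation genes in each library by day (days evenly spaced), FlncKO as orange circles to the left and WT as blue squares to the right, with lines through the group means. Psmb8 is above every WT library on all 5 days, and H2-K1 and H2-D1 fall in both lines with FlncKO above WT at day 6.

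At the start of differentiation more members passed in WT than in FlncKO cells. In FlncKO cells, 4 of the 33 members were higher at day 2 than at day 0 (B2m, Irf9, Parp14 and Trim25) and 2 lower (Bst2 and Irf5), where 12.7% of all genes were called higher and 13.9% lower. In WT cells 15 were higher and 1, Irf5, was lower, where 11.9% of all genes were called higher and 13.6% lower. The 15 that rose in WT cells were B2m, Ddx58, Ifih1, Ifit1, Ifit3, Igtp, Irf7, Irf9, Isg15, Mx2, Parp14, Stat2, Trim25, Usp18 and Xaf1. Ifit1 is given in every library. On day 0, Ifit1 had 0.343, 0, 0.171 and 0.397 CPM in FlncKO libraries, against 0.143, 0.348, 0.388 and 0.574 CPM in WT libraries. On day 1, Ifit1 had 0.777, 0.169, 0.108 and 0.513 CPM in FlncKO libraries, against 0.689, 3.43, 4.39 and 3.55 CPM in WT libraries. On day 2, Ifit1 had 0.339, 0.614 and 0.613 CPM in FlncKO libraries, against 0.856, 7.01, 6.48 and 4.44 CPM in WT libraries. In WT cells 3 of the 4 libraries stood above 3 CPM on both days 1 and 2. On day 4, Ifit1 had 0, 0, 0.477 and 0.216 CPM in FlncKO libraries, against 0.721, 0, 0.738 and 0.115 CPM in WT libraries. On day 6, Ifit1 had 0.278, 0.544, 0.266 and 0 CPM in FlncKO libraries, against 0.754, 0.314, 0.254 and 0.483 CPM in WT libraries. The groups overlapped on both of these days. The Ifit1 log2 difference between day 2 and day 0 was 1.12 ± 0.56 (adjusted p = 0.373) in FlncKO cells and 3.67 ± 0.74 (adjusted p = 0.00133) in WT cells. Irf7 changed in WT cells by 2.38 ± 0.61 (adjusted p = 0.00722) and Isg15 by 1.95 ± 0.67 (adjusted p = 0.0324). Usp18 changed by 4.19 ± 0.74 (adjusted p = 0.00720) and Irf9 by 1.23 ± 0.28 (adjusted p = 0.000289). WT day 2 replicate 4, the library high in Hspa5, held the highest WT value of that day for 10 members, among them Irf7, Irf9, Isg15, Usp18, Ddx58 and Parp14, and the lowest for 9. Without it, WT day 0 replicate 4 and FlncKO day 1 replicate 3, the FlncKO counts were 5 higher (17.3% of all genes) and 4 lower (17.7% of all genes), and the WT counts 11 higher (12.6% of all genes) and 1 lower (12.8% of all genes), with Ifih1, Isg15, Parp14 and Trim25 no longer called higher in WT cells. Isg15 was not called when any of 7 of the 8 libraries was left out (adjusted p up to 0.0933).

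Whether the lines differed in their course was tested over all days together. Genotype by day passed for 5 members, where 7.74% of all genes passed: Xaf1, Parp9, Ifit2, Bst2 (adjusted p = 0.0373) and Irf9 (adjusted p = 0.0499). With the replicate block within each day 8 passed (16.2% of all genes), the additions being B2m, Irgm1 and Trim25. Without FlncKO day 0 replicate 1, 8 passed, and without any of 12 other libraries 3 passed, with no share of all genes set beside these counts. Ifit1, Irf7, Isg15 and Usp18 did not pass (adjusted p = 0.481, 0.453, 0.780 and 0.135), so a different course of these genes in the lines was not shown. Bst2 averaged 7.06 ± 0.822 CPM in FlncKO cells and 6.21 ± 1.06 CPM in WT cells at day 0 and 2.19 ± 0.741 CPM in FlncKO cells and 2.40 ± 0.225 CPM in WT cells at day 6. Change over the days passed for 14 members in FlncKO cells (38.7% of all genes) and for 24 in WT cells (48.5%). Between day 0 and day 6, 2 members rose and 6 fell in FlncKO cells (20.5% and 23.1% of all genes), and 5 rose and 10 fell in WT cells (21.7% and 27.8%). The members that rose in WT cells were Ifit2, Ifit3, Igtp, Mx2 and Xaf1, and those in FlncKO cells were B2m and Iigp1. Bst2, H2-D1, H2-K1 and Irf5 fell in both lines.

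**Figure D4:**
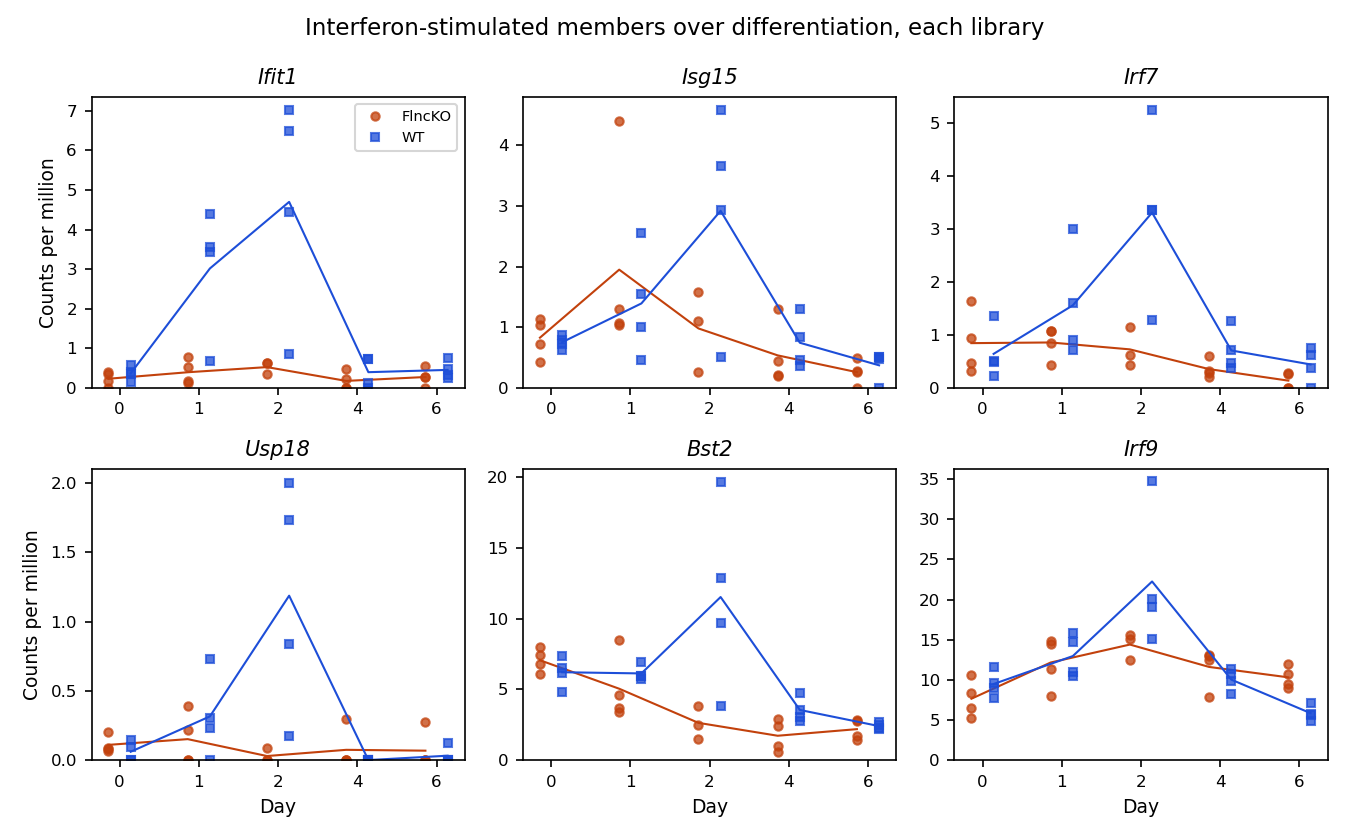
CPM of 6 interferon-stimulated members in each library by day (days evenly spaced), FlncKO as orange circles to the left and WT as blue squares to the right, with lines through the group means. The WT means are highest at day 2 in all 6 panels and are back near day 0 levels by day 4 in Ifit1, Isg15, Irf7 and Usp18.

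Around the members, 3 further lists of pathway genes were read in the same fit. Of 32 ligands, receptors, kinases and regulators upstream, 24 were tested. FlncKO cells had 9 of them higher and 1 lower at day 4, and at day 6, 7 were higher and 0 lower, beside the shares of all genes given above for those days. At days 0, 1 and 2 the counts higher and lower were 2 and 2, 1 and 2, and 2 and 2, again beside the shares given above. Ifnb1, the first interferon made by infected cells, had 0 counts in all 39 libraries. Ifng, interferon gamma, averaged 1.17 ± 1.25 CPM in FlncKO cells and 0.323 ± 0.295 CPM in WT cells at day 6 (log2 difference 1.83 ± 1.20, adjusted p = 0.242). At day 1 Ifng had 14 counts in FlncKO libraries and 0 in WT libraries, at least 5.33-fold higher in FlncKO cells against the limit of 3 counts. At day 0 it had 2 and 0 counts, too few for a fold. The adjusted p of those days and the values of days 2 and 4 are not given here. Socs3, an inhibitor of cytokine receptor kinases, averaged 24.7 ± 4.46 CPM in FlncKO cells and 26.0 ± 10.3 CPM in WT cells at day 0 (log2 difference -0.073 ± 0.29, adjusted p = 0.872) and 51.7 ± 2.51 CPM in FlncKO cells and 8.43 ± 1.72 CPM in WT cells at day 6 (log2 difference 2.62 ± 0.15, adjusted p = 1.60e-09). Socs1, the inhibitor of the interferon receptor kinases, averaged 3.77 ± 2.14 CPM in FlncKO cells and 0.397 ± 0.181 CPM in WT cells at day 6 (log2 difference 3.18 ± 0.57, adjusted p = 1.65e-06). Tmem173, which encodes the DNA-sensing adaptor STING, averaged 2.66 ± 0.867 CPM in FlncKO cells and 13.6 ± 5.86 CPM in WT cells at day 0 (log2 difference -2.35 ± 0.37, adjusted p = 0.000122) and 2.73 ± 1.39 CPM in FlncKO cells and 3.71 ± 2.47 CPM in WT cells at day 6 (log2 difference -0.48 ± 0.64, adjusted p = 0.445).

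Of 54 other interferon-stimulated genes 36 were tested. In FlncKO cells 2 (5.56%) were higher and 8 (22.2%) lower at day 2, where 7.64% and 10.3% of all genes were called. At day 6, 8 (22.2%) were higher and 4 (11.1%) lower, where the shares of all genes were 14.5% and 14.4%. The counts higher and lower at days 0, 1 and 4 were 1 and 2, 4 and 3, and 7 and 5. They stand beside the shares of all genes given with the members for those days. Ifitm3 and Ifitm2, which block virus entry at membranes, averaged 238 ± 69.0 CPM in FlncKO cells and 52.5 ± 18.7 CPM in WT cells and 61.7 ± 19.0 CPM in FlncKO cells and 27.1 ± 9.03 CPM in WT cells at day 6 (log2 difference 2.18 ± 0.30, adjusted p = 6.99e-05 for Ifitm3 and log2 difference 1.19 ± 0.33, adjusted p = 0.00327 for Ifitm2). Lgals3bp, a secreted glycoprotein, averaged 18.6 ± 6.18 CPM in FlncKO cells and 2.15 ± 0.543 CPM in WT cells at day 6 (log2 difference 3.09 ± 0.35, adjusted p = 2.25e-06). Ifi47, an immunity-related GTPase, went the other way at 0.652 ± 0.437 CPM in FlncKO cells and 3.90 ± 1.88 CPM in WT cells (log2 difference -2.45 ± 0.58, adjusted p = 5.52e-05). Of 18 other antigen presentation genes, all 18 tested, 4 (22.2%) were higher and 2 (11.1%) lower at day 6, beside the same shares of all genes. The counts higher and lower at days 0, 1, 2 and 4 were 1 and 0, 2 and 0, 2 and 3, and 4 and 1. The shares of all genes on those days are those given with the members. Tap2, the partner of Tap1, averaged 10.9 ± 1.46 CPM in FlncKO cells and 3.68 ± 1.67 CPM in WT cells at day 1 (log2 difference 1.57 ± 0.33, adjusted p = 0.0224) and 4.53 ± 0.562 CPM in FlncKO cells and 0.569 ± 0.600 CPM in WT cells at day 6 (log2 difference 2.90 ± 0.80, adjusted p = 0.000223). H2-Q4, a class Ib heavy chain, averaged 30.1 ± 14.7 CPM in FlncKO cells and 10.9 ± 2.60 CPM in WT cells at day 0 (log2 difference 1.47 ± 0.36, adjusted p = 0.000448) and 9.23 ± 1.93 CPM in FlncKO cells and 2.37 ± 1.07 CPM in WT cells at day 6 (log2 difference 1.95 ± 0.38, adjusted p = 1.38e-05). Tapbp, which loads peptides onto class I, averaged 49.7 ± 10.1 CPM in FlncKO cells and 24.3 ± 6.30 CPM in WT cells at day 6 (log2 difference 1.03 ± 0.26, adjusted p = 0.00434), and its relative Tapbpl averaged 4.94 ± 0.645 CPM in FlncKO cells and 9.27 ± 1.71 CPM in WT cells (log2 difference -0.91 ± 0.16, adjusted p = 0.0114).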

How the data were processed

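Total RNA of C2C12 cells was made into stranded mRNA libraries and read on a NextSeq 2000 with 51-base reads, per the labels' protocols. FastQC 0.11.9, STAR 2.7.9, featureCounts 2.0.3 and DESeq2 are listed, with the builds GRCm38 and GRCh38, per the submitters' processing notes. The strand setting and annotation of the counting are not given in the sources used here. The authors deposited whole-number counts per gene, with no normalization, and 1 column of that table matched no sample and was not used. All 29980 gene IDs were matched to symbols and positions in GENCODE M21 (GRCm38). Of the counts above 0, 64.4% were even, so mates of a read pair may have been counted apart, and a fit with halved counts was run.

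From these counts, edgeR 4.0.16 in R 4.3.3 (limma 3.58.1) computed TMM factors (0.904 to 1.05) and quasi-likelihood F-tests in 1 model of 10 group means over all 39 libraries, with 29 residual degrees of freedom. The filter filterByExpr by group left 13780 genes, over which p-values were adjusted (Benjamini-Hochberg, threshold 0.05). Each SE is that of the difference of mean log2 CPM (prior count 2), not that of the model. With 0 counts in a group, a fold is a bound, taken as if the whole group held 3 counts. With 1 to 3 counts, a ratio with an exact 95% counting interval is given. Both use the counts as deposited and were not repeated with halved counts. The common biological coefficient of variation was 0.326, and library totals of 6838281 to 28902526 counts left genes under about 1 CPM with few counts each.

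Alternatives were DESeq2 1.42.0 (size factors, and its test), no filter, halved counts, a replicate block, a fit on only the groups compared, and libraries left out. The results for day 2 against day 0, the fit without 3 libraries that stood apart, and the limits and ratios at 0 to 3 counts with a library left out were chosen after seeing the data. Deviations of same-numbered libraries of the lines from their group means correlated at 0.126 to 0.571 at days 0, 1, 2 and 4. At day 6 the correlations ran from -0.017 to 0.185, so the ranges overlapped. The labels do not say what a number marks, so the pairing comes from the data.

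The members and the further gene lists were chosen with earlier results of these data known, so no list gives independent support. Values in every library are given for the 10 members with the smallest p of FlncKO against WT over all days and, in each class, for the member with the smallest such p and the one with the highest mean CPM. The other members called on a day have group values, as have up to 4 genes of each further list by the same p. One gene of these lists is not reported here. The Ifit1 values in every library, the untested members, the uncalled members, Ifng, Ifnb1, Lyz2, Myog, Myh3 and Hspa5 were added after their values were seen. RefSeq promoter windows (GRCm38.p6) matched 28 of the 35 members. The fit was tested on simulated data.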

Additional observations from a re-analysis of the deposited data

Results flagged for a closer look

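In 13 of 116 groups of 4 libraries, over the 14 members given in every library, 1 library lay far from the other 3. Chance alone gives about 1 in 20 groups, and a group with 3 libraries at 0 meets the criterion with any count in the other one. FlncKO replicate 1 was the high library for Iigp1 at day 0 (1.37 CPM), day 1 (3.40 CPM) and day 4 (22.7 CPM), and for B2m at day 0 (630.4 CPM). Ifit2 was high in FlncKO day 0 replicate 5 (35.3 CPM) and Trim25 was low in FlncKO day 6 replicate 5 (40.7 CPM). Mx2 was counted in 1 FlncKO library each at day 4 (replicate 5, 0.108 CPM) and day 6 (replicate 3, 0.272 CPM). Among WT libraries, Irf1 was high in day 0 replicate 4 (49.8 CPM) and Parp9 in day 0 replicate 1 (7.60 CPM). Few counts lay behind the WT values of Psmb8 in day 2 replicate 3 (0.0762 CPM), Psmb9 in day 1 replicate 3 (0.101 CPM) and Iigp1 in day 0 replicate 1 (0.0717 CPM).

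The difference between the lines changed over the days for 5 members, by edgeR's joint test of genotype by day. The adjusted p was 0.000880 for Xaf1, 0.00631 for Parp9, 0.0104 for Ifit2, 0.0373 for Bst2 and 0.0499 for Irf9. Without the 3 libraries that stood apart 3 members passed.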

How the results depend on the processing

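Counts are of members called. The share of all genes called in the same fit is not set beside them here. These counts alone therefore do not tell a shift of the members from a shift over all genes. Fitting only the groups compared gave 1 lower at day 0 (2 in the model of all groups), 3 higher and 2 lower at day 1 (5 and 4), 2 higher at day 2 (4) and 1 lower at day 4 (5). That fit also gave 4 higher at day 6 against day 0 in FlncKO cells (2), 5 lower in WT cells (10) and 0 lower at day 2 against day 0 in WT cells (1, Irf5). Without a filter on low counts 4 were lower at day 2 (7), and genotype by day passed for 3 (5). Without FlncKO day 1 replicate 3 and WT day 0 replicate 4, FlncKO cells had 4 higher at day 6 (2) and 4 lower at day 2 (2), both against day 0, and Ddx58 at day 2 turned to a log2 difference of -0.0027. Without WT day 2 replicate 4 as well, 4 were lower at day 2 in FlncKO cells and 3 passed genotype by day. Each of these fits holds fewer libraries or other genes, and the cause of the shifts was not tested.

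With the replicate block within each day, 4 were lower at day 0 (2) and 8 passed genotype by day (5). The pairing changed no other count by over 1.5 times. It ended the calls of Ifit1 (adjusted p = 0.0558), Usp18 (0.0726) and Iigp1 (0.0619) at day 2 and of Irf5 at day 4 (0.0572). It added Irf1, Ifi35, Gbp2 and B2m at day 0, Irf1 and Ddx58 at day 1, Mx2 and Irgm1 at day 2, and Psmb9 at day 6, all by edgeR.

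Leaving out each library in turn, FlncKO against WT gave 4 to 7 higher and 1 to 4 lower at day 0, 4 to 6 and 2 to 5 at day 1, 2 to 4 and 2 to 8 at day 2, 6 to 9 and 3 to 5 at day 4, and 8 to 12 and 3 to 5 at day 6. Counts that moved by over 1.5 times did so as follows. At day 0, 1 was lower without WT replicate 1 and 4 without FlncKO replicate 1. At day 1, 2 were lower without WT replicate 5. At day 2, 2 were higher without WT replicates 3 or 5, and lower were 2 without FlncKO replicate 5, 3 without FlncKO replicate 1 and 4 without WT replicates 3, 4 or 5. At day 4, 3 were lower without FlncKO replicates 1 or 3 or WT replicates 1 or 5. Genotype by day passed for 8 without FlncKO day 0 replicate 1 and for 3 without any of 12 other libraries. Of changes within FlncKO cells, 5 were higher at day 6 without day 0 replicate 1 and 4 without day 1 replicate 3, 2 were higher at day 2 without day 2 replicate 5, and 1 was lower without day 2 replicates 1 or 5. At day 6 against day 0, FlncKO cells had 2 to 5 higher and 5 to 7 lower, and WT cells 5 to 5 and 7 to 11. At day 2 against day 0, FlncKO cells had 2 to 5 and 1 to 3, and WT cells 12 to 16 and 1 to 1. Over all days 20 to 27 differed, 3 to 8 passed genotype by day, and 11 to 15 changed in FlncKO cells and 23 to 26 in WT cells. Log2 differences that turned sign, all short of the threshold, ran from -1.92 to 5.78 for Iigp1 at day 0, and at day 2 from -0.11 to 0.59 for Parp9, -0.12 to 0.19 for Ddx58, -0.32 to 0.066 for Ifit2 and -0.049 to 0.11 for Trim25. B2m at day 4 ran from -0.20 to 0.063. Over the 14 members given in every library, 570 of the other values under an alternative kept their direction and side of the threshold, 21 no longer passed and 16 came to pass. Of the values with a library left out, 468 kept both, 52 no longer passed and 5 came to pass. Depth limits members under about 1 CPM, where single counts set a library's value.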

Other observations

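Further genes of the pathway, chosen after their values were seen, also went in both directions by edgeR. Jak1, a kinase of every interferon receptor, averaged 278 ± 44.7 CPM in FlncKO cells and 139.8 ± 7.47 CPM in WT cells at day 6 (log2 difference 0.99 ± 0.12, adjusted p = 0.000160). Jak2, the second kinase of the interferon gamma receptor, averaged 54.8 ± 8.21 CPM in FlncKO cells and 24.1 ± 4.88 CPM in WT cells (log2 difference 1.18 ± 0.18, adjusted p = 0.00974). Ikbke, a kinase that activates the interferon regulatory factors, averaged 6.27 ± 1.86 CPM in FlncKO cells and 2.09 ± 0.693 CPM in WT cells at day 6 (log2 difference 1.61 ± 0.34, adjusted p = 8.85e-05). H2-T23, which encodes the class Ib molecule Qa-1, averaged 24.2 ± 4.99 CPM in FlncKO cells and 11.6 ± 4.15 CPM in WT cells (log2 difference 1.06 ± 0.30, adjusted p = 0.0127). Ube2l6, the conjugating enzyme of Isg15, averaged 19.0 ± 3.46 CPM in FlncKO cells and 40.6 ± 5.99 CPM in WT cells (log2 difference -1.10 ± 0.17, adjusted p = 0.0313). Irgm2, a regulator of the immunity-related GTPases, averaged 0.608 ± 0.183 CPM in FlncKO cells and 4.89 ± 2.7 CPM in WT cells at day 2 (log2 difference -2.99 ± 0.44, adjusted p = 0.00493). Its exons overlap those of Igtp on the same strand, and how reads there were counted is not given in the sources used here.

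How often each library held the highest or lowest value of its group was counted over 33 members, leaving ties out. The highest values were spread over the libraries of some groups, as in FlncKO cells at day 4, where replicates 1, 3, 4 and 5 held 8, 11, 3 and 9 of them. In other groups 1 library held more. FlncKO day 0 replicate 1 held the highest value of its group for 19 members and the lowest for 2. FlncKO day 2 replicate 3 held the highest for 15, and FlncKO day 2 replicate 1 the lowest for 18. WT day 1 replicate 5 held the highest for 22, and WT day 2 replicate 1 the lowest for 17. What these libraries share was not tested.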
